A study of Homo sapiens with 2 samples.

Results

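Integrins are cell surface receptors made of an alpha and a beta chain, through which cells attach to matrix proteins such as collagen, laminin, fibronectin and vitronectin. ITGB1 encodes the beta chain that most alpha chains can pair with, while ITGA2, ITGA3, ITGA4, ITGA5, ITGA6 and ITGAV encode alpha chains that decide which ligand is bound. ITGB4 pairs with the ITGA6 product, and ITGB5 and ITGB8 encode beta chains that pair with the ITGAV product. The mRNAs of these 10 integrin subunits were examined for binding by RBM47, an RNA-binding protein. The genes were taken by name and not by a limit on their tags, though earlier results of these data were known.

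Binding was measured by HITS-CLIP, which fixes proteins to bound RNA with ultraviolet light, purifies 1 protein with its RNA and sequences the fragments. The cells were MDA231-BrM2a, a brain metastatic, non-clonal population grown from the breast cancer line MDA-MB-231. They expressed Flag-tagged wild-type RBM47 after 3 days of doxycycline at 1 ng/ml, which switches the introduced gene on. There was 1 group with 2 replicates, and no uninduced, untagged or non-irradiated library was analysed here. A tag is a unique read, told from PCR copies by a random barcode in the primer, and a cluster is a stretch of overlapping tags. Since no RNA level was measured in these files, more binding per transcript and more transcripts cannot be told apart, and the tags come from an introduced, tagged protein.

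Of the 10 genes, 7 had at least 1 deposited cluster, with 234 of the 233546 clusters of the table and 13669 tags by the authors' total. No cluster carried the symbol or the Entrez ID of ITGA4, ITGB4 or ITGB8. Every cluster in the table has 1 or more tags from both replicates and a total of 5 or more, so a gene without a row is not shown to be unbound or absent. The table held 999047 tags of replicate 1 and 3489697 of replicate 2, and values are therefore given as CPM, a gene's tags scaled to 1000000 tags for each library's column. The member clusters were deeper than the table as a whole, with a median of 11 tags against 8, and 54.3% of them reached 10 tags against 40.7% of all clusters. The authors labelled clusters by location, such as coding sequence (CDS), intron or 3'UTR. Positions are on hg18, the build listed in the submitters' processing notes.

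Binding was concentrated on 4 of the subunits. ITGAV, ITGA6, ITGB1 and ITGA2 each had more than 100 tags when only clusters of 10 or more tags were counted, a limit taken from the study and applied here to this table by Entrez ID, and 39.9% of the 7712 genes in the table did so. The set of genes passing here is not the study's own list. Thus 4 of the 7 genes with a row passed, and 4 of the 10 named. Among the 5600 genes with a cluster of at least 10 tags, ITGAV ranked 63 with 4930 tags, ITGA6 83 with 4108, ITGB1 172 with 2772 and ITGA2 593 with 1100, while ITGA3 ranked 3948 with 45 tags. The median of such genes was 127 tags.

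The strongly bound genes had similar levels in both libraries. Over all its clusters, ITGAV had 1092 CPM in replicate 1 and 1133 in replicate 2. ITGA6 had 862 and 949. ITGB1 had 680 and 713. These 3 genes lay in the same order in both libraries. ITGA2 had 275 and 265 CPM, and ITGA3 had 27.0 and 20.1. ITGB5 had 5.00 and 3.15, from 5 and 11 tags, and ITGA5 had a mean of 2.22 ± 1.11 (SD, n = 2), from 3 and 5 tags. The last 3 genes were all higher in the smaller library, with so few tags that the counting error alone is wide. Each cluster also had to hold 1 tag of each replicate. Replicate 1 held 22.3% of the tags in all clusters and 21.1% in clusters of at least 10 tags. The part of this filter was not tested.

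**Figure D1:**
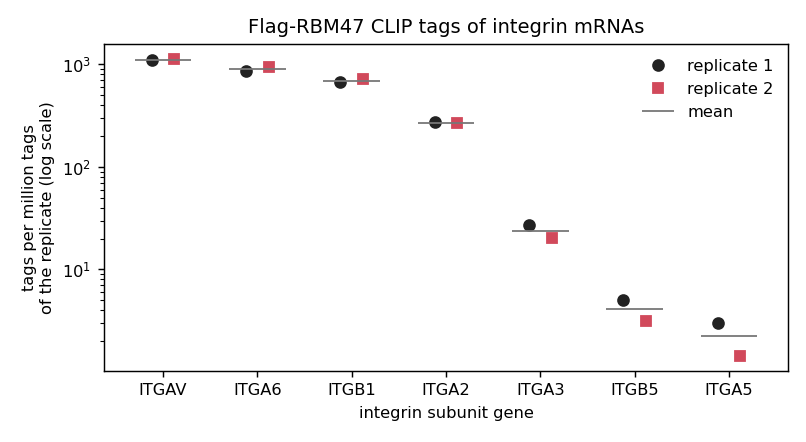
Tags in all deposited clusters as CPM (log axis) for the 7 integrin genes with a cluster, with a circle for replicate 1, a square for replicate 2 and a line at the mean of n = 2. ITGAV, ITGA6, ITGB1 and ITGA2 sit above 265, and ITGA3, ITGB5 and ITGA5 lie at or below 27.0.

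Genes can be compared only per length, and the length of the clusters was used. In clusters of at least 10 tags, ITGAV had 199 and 209 CPM per kb of cluster in replicates 1 and 2, or 204 ± 7.28 (SD, n = 2). ITGA6 had 159 ± 11.0, ITGB1 93.0 ± 5.30, ITGA2 78.2 ± 0.0827 and ITGA3 39.6 ± 5.83 (SD, n = 2 each). None of the 4 pairs of neighbours in this order had overlapping replicates, although 2 values against 2 cannot give a two-sided exact permutation p below 0.333. The smallest step was that from ITGB1 to ITGA2, a ratio of 1.19. Over all deposited clusters this step was gone, with 65.8 ± 1.71 for ITGA2 and 64.8 ± 2.19 for ITGB1 and overlapping replicates, and ITGA5, ITGA3 and ITGB5, at 37.0, 29.2 and 23.3, overlapped with their neighbours as well. By tags per kb among the 3074 genes with more than 100 tags, ITGAV ranked 70, ITGA6 111, ITGB1 329 and ITGA2 511.

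The location of the tags differed between ITGB1 and the 3 strongly bound alpha chains. Shares by location were taken in clusters of at least 10 tags. In ITGA6 and ITGA2 most tags lay in 3'UTR clusters, and in ITGAV in a cluster that runs from the end of the coding sequence into the 3'UTR. In ITGB1 most tags lay in coding sequence. The CDS share of ITGB1 was 64.9% in replicate 1 (Wilson 95% interval 60.9 to 68.7) and 70.7% in replicate 2 (68.8 to 72.6). In ITGA6 it was 18.2% (15.7 to 20.9) and 19.3% (17.9 to 20.6). In ITGA2 it was 3.25% and 4.43%, and in ITGAV 4.16% and 5.85%. The lower of the ITGB1 values was more than 3 times the highest value of these alpha chains, and this gap exceeded the spread between replicates. ITGA3 had CDS shares of 41.7% and 29.4%, but from only 5 and 10 tags, with intervals of 19.3 to 68.0 and 16.8 to 46.2. Over all genes the CDS share was 10.1% ± 0.177 (SD, n = 2). The mean share of tags under any label with 3'UTR was 96.2% in ITGA2, 94.5% in ITGAV and 76.1% in ITGA6. Over all deposited clusters it was lower, at 88.4%, 92.2% and 74.9%, so the smallest clusters of ITGA2 lay more often outside the 3'UTR.

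Among the strongly bound genes, CDS clusters held more tags than 3'UTR, intron or several-label clusters in 7.06% of the 3074 genes. Clusters of unclassified exons and 5'UTRs were left out of this comparison. The 3'UTR clusters led in at most 68.8%, because genes with tags in none of the compared classes, such as NEAT1 and MALAT1, were counted there. Intron clusters led in 14.7%. Clusters with several labels led in 9.47%. ITGB1 was in the first of these classes, ITGA6 and ITGA2 in the second and ITGAV in the last. Only 48 of the 3074 genes had a higher CDS share than ITGB1. The median gene had a CDS share of 5.65% and a 3'UTR share of 67.5%.

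**Figure D2:**
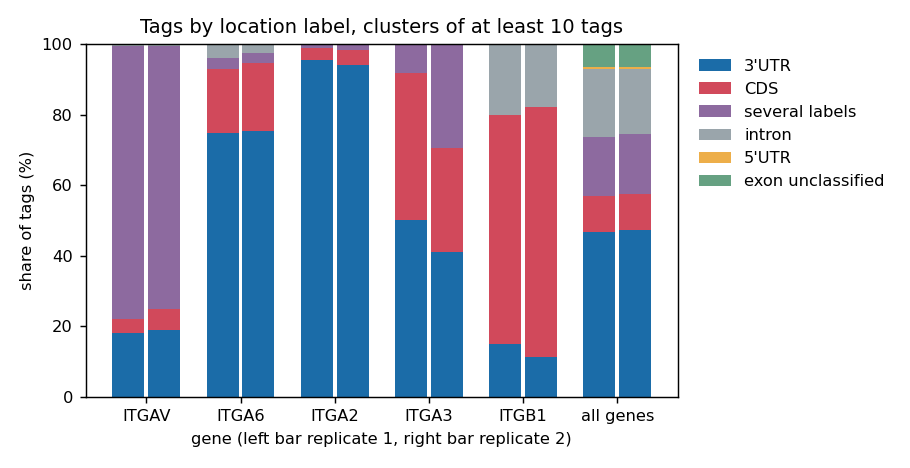
Share of a gene's tags (in percent) by location label in clusters of at least 10 tags, with the left bar for replicate 1 and the right bar for replicate 2, for 5 integrin genes and for all genes together. CDS fills 64.9% and 70.7% of the ITGB1 bars, 3'UTR fills 74.9% and 75.4% of the ITGA6 bars, and the several-label class fills 77.4% and 74.7% of the ITGAV bars.

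ITGAV, the alpha chain of vitronectin receptors, had most of its tags in an almost unbroken stretch at the 3' end. Its largest cluster (chromosome 2, plus strand, 187250220 to 187253006) was labelled CDS and 3'UTR and was 2786 nt long. It held 818 tags of replicate 1 and 2902 of replicate 2, or 819 and 832 CPM. A 3'UTR cluster at 187253004 to 187253502 followed with 114 and 447 tags, and another at 187253523 to 187253874 with 76 and 288 tags. Joined across gaps of up to 50 nt, these 3 clusters formed a stretch of 3654 nt with 92.2% ± 0.306 (SD, n = 2) of the gene's tags. How the tags of the largest cluster divide between coding sequence and 3'UTR cannot be read from the table. The 14 CDS clusters of at least 10 tags upstream of it were far smaller, with 10 to 36 tags and a median of 20.

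ITGA6, the alpha chain of laminin receptors, had most of its tags in the 3'UTR. The largest cluster (chromosome 2, plus strand, 173077243 to 173078632) lay in the 3'UTR and held 455 and 1777 tags, or 455 and 509 CPM. The next were 3'UTR clusters at 173078941 to 173079137 with 76 and 319 tags and at 173078633 to 173078927 with 68 and 246 tags. With a neighbour labelled CDS and 3'UTR and another 3'UTR cluster, they joined into a stretch of 2190 nt with 74.9% ± 0.657 (SD, n = 2) of the gene's tags. The coding sequence was bound as well, and its 20 CDS clusters of at least 10 tags held 11 to 90 tags, with a median of 35. A further cluster of 73 tags, labelled CDS and 5'UTR, lay among them at 173047882 to 173048100.

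ITGA2, the alpha chain of a collagen receptor, had its tags spread over many small 3'UTR clusters. Its 18 3'UTR clusters of at least 10 tags held 10 to 219 tags each, with a median of 35. The largest (chromosome 5, plus strand, 52425571 to 52425875) held 52 and 167 tags, or 52.0 and 47.9 CPM. A cluster at 52423047 to 52423573 held 27 and 114 tags, and another at 52425331 to 52425571 held 31 and 88 tags. The densest stretch, at 52424816 to 52426176, joined 8 clusters and held 52.3% ± 1.47 (SD, n = 2) of the gene's tags. The 4 clusters with most tags were needed to reach 50% of the tags in clusters of at least 10 tags, against 1 cluster each in ITGAV and ITGA6 and 7 in ITGB1.

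ITGB1, the common beta chain, had 106 clusters, more than any other member. Its largest cluster held 12.2% of its tags where clusters of 10 or more tags are counted, the lowest such share of the 5 members that have one, whereas that of ITGAV held 75.4% and that of ITGA6 54.3%. The median over the 3074 genes was 21.4%. The largest ITGB1 cluster (CDS, chromosome 10, minus strand, 33254802 to 33255057) held 62 and 277 tags, or 62.1 and 79.4 CPM. The next were CDS clusters at 33251571 to 33251676 with 64 and 197 tags and at 33248814 to 33249022 with 34 and 170 tags. Of the 15 CDS clusters of at least 10 tags, 8 held at least 100 tags, and their median was 114. In ITGA6 and ITGAV no cluster labelled CDS alone reached 100 tags.

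The 3'UTR of ITGB1 held few of its tags. Its largest 3'UTR cluster, at 33229755 to 33229816, was only 61 nt long and held 43 and 128 tags, 171 of the 335 tags in 3'UTR clusters of at least 10 tags. The 6 3'UTR clusters of at least 10 tags held 87 and 249 tags together, or 15.0% and 11.3% of the gene's tags in such clusters. ITGB1 also had the most intron clusters of the members, 78 in all with 825 tags, of which 29 reached 10 tags and none exceeded 52. Downstream of the last CDS cluster of at least 10 tags lay 28 of them with 428 tags, and the other 50, with 397 tags, lay between 33259495 and 33286148. In clusters of at least 10 tags, the intron share of ITGB1 was 20.1% and 18.0%, from 117 and 395 tags. The share was 3.90% and 2.61% in ITGA6 and 0.473% and 0.489% in ITGAV. Over all deposited clusters the ITGB1 introns held more, 204 of 679 tags of replicate 1 and 637 of 2488 of replicate 2. ITGA2 had no intron cluster of at least 10 tags.

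**Figure D3:**
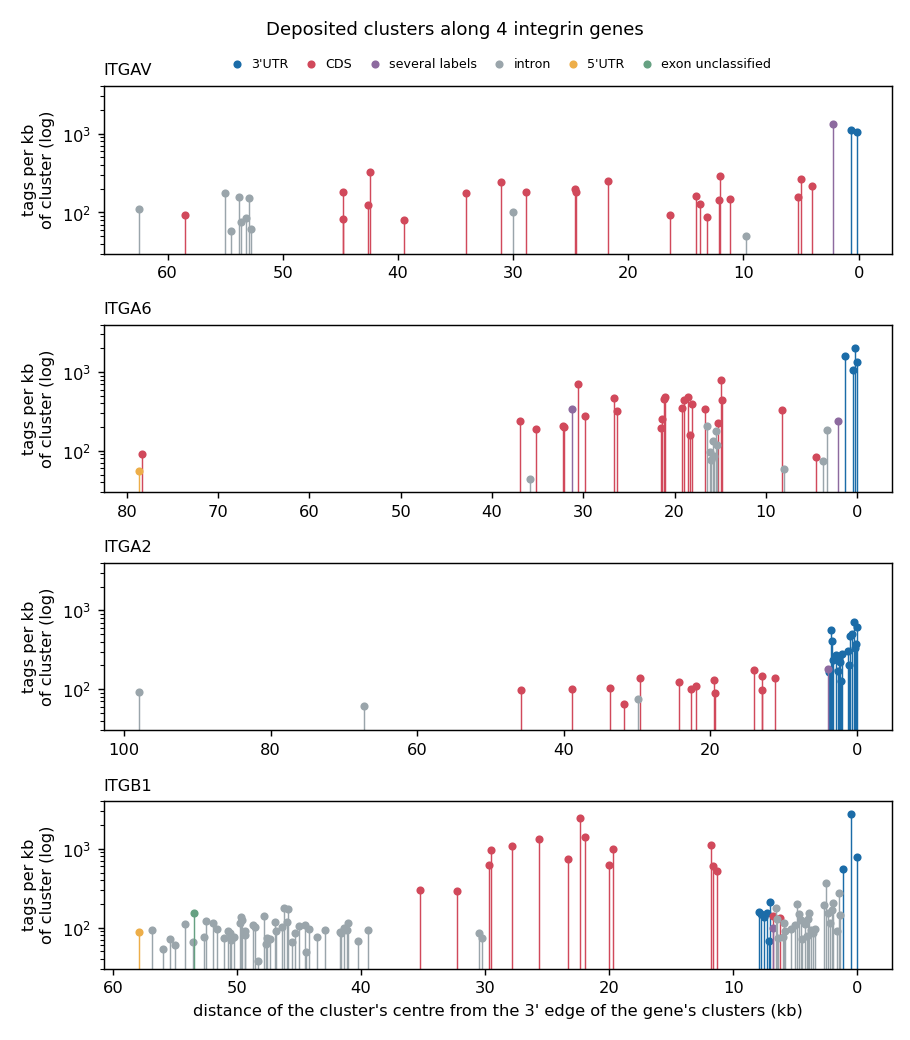
All deposited clusters of ITGAV, ITGA6, ITGA2 and ITGB1, as tags per kb of cluster from the authors' total (log axis) against the distance of the cluster's centre from the 3' edge of the gene's clusters (in kb), coloured by location label. The tallest ITGAV and ITGA6 clusters lie in the last 4 kb, and in ITGB1 most of the tallest lie in coding sequence further upstream.

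The same tags were also placed by distance from the 3' edge, taken as the end of the most downstream named cluster. This is another view of the labelled positions and not separate evidence. Within 4 kb of it lay 92.4% and 92.0% of the ITGAV tags of replicates 1 and 2, 74.9% and 75.7% of the ITGA6 tags and 87.6% and 89.1% of the ITGA2 tags. For ITGB1 the values were 21.5% and 16.6%. Within 30 kb the ITGB1 share rose to 82.3% and 85.2%, and it was between 93.5% and 97.1% in the 3 strongly bound alpha chains.

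Tag density was then compared between regions of the same gene, which removes differences in transcript level between genes but not those between regions. Only clusters of at least 10 tags were used. In ITGB1, CDS clusters had 181 and 214 CPM per kb and 3'UTR clusters 157 and 128. In ITGA6, CDS clusters had 71.9 and 83.9 and 3'UTR clusters 319 and 354. In ITGA2, the values were 25.4 and 34.6 for CDS and 85.9 and 84.4 for 3'UTR. In ITGAV, CDS clusters had 31.4 and 46.4 and 3'UTR clusters 224 and 248, without the cluster that spans both. Pooled, 3'UTR clusters were denser than CDS clusters in both replicates of ITGA6, ITGA2 and ITGAV and less dense in both of ITGB1. The ITGB1 direction depends on 3'UTR clusters at 33236305 to 33237193, which lie upstream of a CDS cluster at 33236050 to 33236121. By the authors' totals they had 66.7 to 159 tags per kb. Those at the 3' end, at 33229257 to 33230439, had 559 to 2803. Intron clusters were the least dense class in ITGAV, ITGA6 and ITGB1, at 18.9 ± 1.13, 27.1 ± 5.79 and 29.7 ± 0.716 (SD, n = 2 each).

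As a log2 ratio of 3'UTR over CDS density, the values were 2.63 ± 0.29 in ITGAV, 2.11 ± 0.05 in ITGA6, 1.52 ± 0.33 in ITGA2 and -0.47 ± 0.37 in ITGB1 (SD, n = 2 each). Replicates of ITGB1 were -0.21 and -0.73, and the lowest value of the other 3 genes was 1.29, in ITGA2. Among the 1993 genes with more than 100 tags and clusters of both kinds, the median was 0.80 from the authors' totals, and 9.58% of the genes were below 0. By the same totals, ITGB1 at -0.62 had 28 genes below it. Its negative sign depends on pooling the sparse 3'UTR clusters at 33236305 to 33237193, and its rank without them was not computed. ITGAV at 2.50 had 27 genes above it and ITGA6 at 2.09 had 97. ITGA2 at 1.37 had 433 above it.

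**Figure D4:**
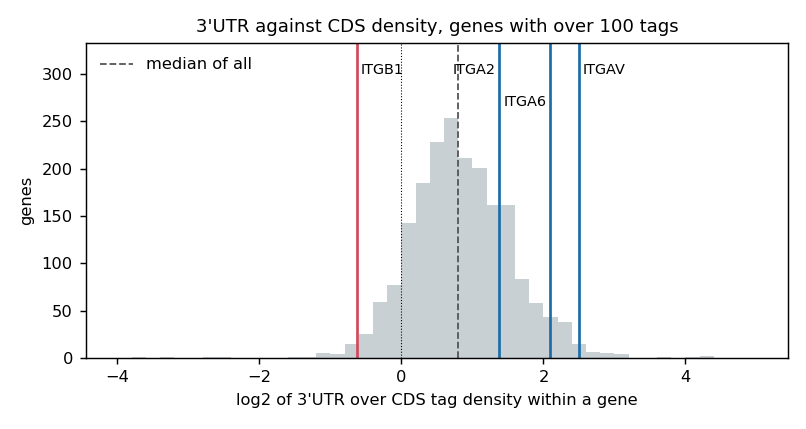
Number of genes by log2 ratio of 3'UTR over CDS tag density, from the authors' totals in clusters of at least 10 tags, for 1993 genes with more than 100 tags. Vertical lines mark the integrin genes, with ITGB1 at -0.62 on the left and ITGA2, ITGA6 and ITGAV at 1.37, 2.09 and 2.50 on the right of the median of 0.80 (dashed line). The ITGB1 value pools all its 3'UTR clusters of at least 10 tags, including sparse ones upstream of a CDS cluster.

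Density per kb of cluster leaves out unbound sequence, so the tags were also divided by the length of each region in the canonical transcript of GENCODE release 44, with clusters labelled CDS and 3'UTR counted as 3'UTR. This measure was added after the data were seen. The annotation the authors used may differ. Only clusters of at least 10 tags were counted. The covered lengths and the values per kb therefore leave out smaller clusters, which all 4 genes also had in coding sequence or 3'UTR. The ITGB1 coding sequence of 2394 nt had CDS clusters over 2088 nt, and that of ITGA6, of 3219 nt, over 2145 nt. In ITGAV 1403 of 3144 nt were covered, and in ITGA2 only 315 of 3543 nt. Per kb of coding sequence, ITGB1 had 172 ± 20.2 CPM, ITGA6 51.9 ± 5.67, ITGAV 17.3 ± 4.72 and ITGA2 2.67 ± 0.575 (SD, n = 2 each). Per kb of 3'UTR the order was another, with 284 ± 6.51 in ITGAV, 283 ± 21.7 in ITGA6, 63.1 ± 8.86 in ITGB1 and 56.6 ± 0.549 in ITGA2. The ITGAV and ITGA6 values overlapped. Those of ITGB1 and ITGA2 overlapped by their replicates also, at 69.4 and 56.9 against 57.0 and 56.2. The ITGB1 3'UTR value includes tags of the clusters at 33236305 to 33237193. These lie upstream of a CDS cluster and apart from the 3' end, so the value is somewhat too high for that 3'UTR. In ITGAV the 3'UTR value includes the whole cluster labelled CDS and 3'UTR. The clusters counted there cover 3635 nt, against a 3'UTR of 3612 nt. That value is therefore an upper limit, and the CDS value and covered CDS length of ITGAV are lower limits. ITGA6 and ITGA2 had smaller clusters of this kind, with 42 and 17 tags.

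**Figure D5:**
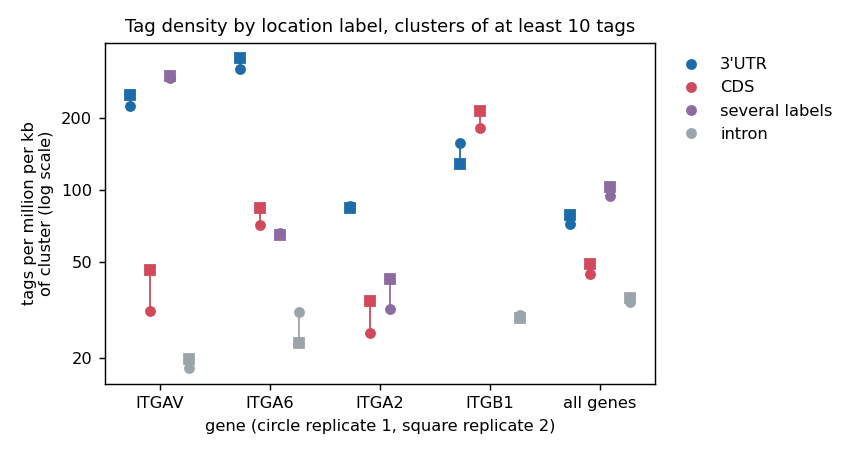
CPM per kb of cluster (log axis) by location label in clusters of at least 10 tags, with a circle for replicate 1 and a square for replicate 2 joined by a line, for 4 integrin genes and for all genes together. The CDS points of ITGB1, at 181 and 214, lie above its 3'UTR points, which pool the 3' end with sparse clusters upstream of a CDS cluster. In the other genes the 3'UTR points lie above the CDS points.

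A processed pseudogene of ITGB1, ITGB1P1, lies elsewhere in the genome and is the 1 integrin pseudogene that GENCODE names. How reads matching both places were handled is not given in the sources used here, so the exon tags of ITGB1 are uncertain to that extent and its part in the CDS share was not tested. The ITGB1 clusters were all listed on chromosome 10, but they were taken by gene name, so this does not bear on such reads. Counting only clusters of at least 30 tags, the CDS share was 80.0%, and counting all deposited clusters it was 59.2%.

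The remaining members had little to describe. ITGA3, an alpha chain of laminin receptors, had 11 clusters with 95 tags over 25.0 kb of chromosome 17, and 3 of them reached 10 tags. These were a 3'UTR cluster at 45522769 to 45522843 with 6 and 14 tags, a CDS cluster at 45503195 to 45503294 with 5 and 10 tags, and a cluster labelled CDS and 3'UTR at 45521473 to 45521575 with 1 and 10 tags. ITGB5 had CDS clusters (chromosome 3, minus strand) at 125965932 to 125966011 with 2 and 6 tags and at 125967761 to 125967857 with 3 and 5 tags. ITGA5, the alpha chain of the fibronectin receptor, had a single 3'UTR cluster (chromosome 12, minus strand) at 53075313 to 53075373 with 3 and 5 tags. At this depth their distribution over regions could not be measured.

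Each cluster's split between the libraries was tested against the 22.3% of all tags that came from replicate 1, by an exact binomial test, two-sided and adjusted over all 233546 clusters. Of the 234 member clusters, 0 passed, and 0.0111% of all clusters did. Member clusters had a median of 11 tags, and each had to hold 1 tag of each replicate. Most thus had little room to pass, and the 0 does not show that their splits were alike. At an unadjusted p under 0.05, 14 member clusters stood out, or 5.98% against 3.04% of all clusters. The beta-binomial test called 0 as well, with 6 at an unadjusted p under 0.05. On sums per gene 0 of the 7 members passed, and 1.7% of the 7712 genes did. The member with the smallest adjusted p was ITGA6, of which 20.6% of tags (Wilson 95% interval 19.4 to 21.9) came from replicate 1, with an exact binomial p of 0.012, or 0.242 adjusted over all genes. It was the only member under 0.05 before adjustment, and with the beta-binomial test none was. None of the 5 members with clusters of at least 10 tags was either, where the expected share was 21.1%. With the expected share taken from the median ratio, 1 member was, and likewise where replicate tags sum to the total. Among single clusters, an ITGA6 CDS cluster at 173070947 to 173071076 had 2 and 41 tags, with an unadjusted exact p of 0.00287. Its adjusted p was 1, and it was picked out after its values were seen. These tests compare the libraries and not conditions.

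Few of the other integrin subunits were in the table. Of 16 further subunit genes, 3 had a cluster and 1 of these had more than 100 tags, beside 39.9% of all genes in the table. This was ITGA1, another alpha chain of collagen receptors, with 191 and 612 tags in clusters of at least 10 tags, or 183 ± 11.2 CPM (SD, n = 2). Unlike in the 4 strongly bound members, 66.5% of its tags lay in introns and 25.3% in 3'UTRs. The assignment is uncertain, because 30 of its 101 clusters lay within the span of the clusters named PELO, a gene inside ITGA1. ITGB3 had 2 clusters with 12 tags and ITGB2 1 cluster with 8 tags.

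Of 24 genes of the adhesion complex that links integrins to actin, 14 had a cluster and 12 of these had more than 100 tags, beside 39.9% of all genes in the table. PTK2, which encodes focal adhesion kinase, had 407 and 1413 tags in clusters of at least 10 tags, and 56.1% of its tags were in introns. VCL, which encodes vinculin, had 371 and 1252, with 84.5% in 3'UTRs. FERMT2, which encodes the integrin activator kindlin-2, had 166 and 655, with 72.9% in 3'UTRs. In 7 of the 12 genes 3'UTR clusters held more tags than any other class, and in 1, FLNA, CDS clusters did. The other 10 genes of the list had no cluster.

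Of 8 membrane proteins that associate with integrins, 7 had a cluster and 4 of these had more than 100 tags, also beside 39.9%. CD47, which associates with integrins of the ITGAV type, had 572 and 2096 tags with 65.9% in 3'UTRs. The proteoglycan gene SDC4 had 297 and 1216 with 82.9%, and the tetraspanin gene CD9 had 122 and 311 with 70.9%. In all 4 genes 3'UTR clusters held most tags. As to the labelled line, CD44, EGFR and VIM had 8404, 5102 and 3327 tags in clusters of at least 10 tags. KRT18, the other marker listed for the line, had no cluster. Neither hormone receptor gene, ESR1 or PGR, had one, and of 4 genes of other cell types only ALB had a cluster, with 5 tags.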

How the data were processed

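HITS-CLIP was carried out on 2 replicates of a single group. The authors ran their analysis on Galaxy and called clusters of tags found in both replicates. Novoalign and hg18 are listed in the submitters' processing notes, without versions or settings. A degenerate barcode in the reverse transcription primers served to tell unique cDNA from PCR copies, so tags are unique reads. Counts of tags, as deposited, stand in 1 column per replicate and a total for each cluster, and all 3 columns were used. In 25 member clusters the replicate counts exceeded the total, by at most 5 tags.

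CPM was computed from the tag sums of the table, 999047 and 3489697, which are not library depths. Clusters with more than 1 label formed a class of their own, and a minimum of 10 tags was applied where stated. Splits between libraries were tested with the exact binomial test and Benjamini-Hochberg adjustment at 0.05 (scipy 1.17.1, Python 3.11.15), which was tested on simulated data. Wilson intervals at 95% cover counting error only. The study calls the replicates separate experiments and treats clusters found in both as biologically repeated, though separate cultures are not described, so the SDs measure only the spread between these samples.

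The genes and lists were chosen with earlier results of these data known. The text names all 10 members, whatever their values, and up to 3 clusters of each. It names other subunits with more than 100 tags and the 3 genes with most tags of each other list. Further names were chosen after their values were seen. No genome of hg18 was used, so no sequence was read. GENCODE release 44 on GRCh37 was used for names and lengths only, as 5 of 7 members had no cluster inside the gene there.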

Additional observations from a re-analysis of the deposited data

How the results depend on the processing

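The 4 genes with more than 100 tags, and the 0 member clusters and 0 member genes with a discordant split, stayed at these counts under all alternatives run. For clusters this says little, since most held too few tags to pass easily. The 3'UTR share of member tags was 41.8% in clusters of at least 10 tags, 39.8% in all deposited clusters and 44.0% at 30 tags. It was 71.4% when every label with 3'UTR was counted and 56.3% without ITGAV, since the largest ITGAV cluster carries more than 1 label. The intron share was 5.26%, 8.57% in all clusters and 1.44% at 30 tags. The median density of members was 93.0 CPM per kb, 63.9 in all clusters, where 7 genes were counted, and 185 at 30 tags, where 4 were. With a replicate left out, the 3'UTR share ranged from 41.9% to 46.0%, the intron share from 1.12% to 3.94% and the density from 116 to 228, and in each of these the value without replicate 2 lay farther from that of both. With 1 library fewer clusters reach 10 tags. The CDS share of ITGB1 was 67.8% in clusters of at least 10 tags and ranged from 59.2% to 80.0%. The alternatives for single genes, the omission of ITGAV and the addition of downstream clusters were chosen after the data were seen. No paired analysis was possible because nothing but 1 group was measured. ITGA3, ITGA5 and ITGB5 had at most 27 tags of replicate 1 each, too few for shares by location.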

Other observations

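ITGB1 was the only member with clusters listed just downstream of its own. Within 10 kb of its most downstream named cluster lay 37 clusters on the same strand that carried no gene name and the label for sequence within 10 kb downstream of a gene, from 33219164 to 33229079 on chromosome 10. They held 101 tags of replicate 1 and 324 of replicate 2, or 101 and 92.8 CPM, and the nearest was 178 nt away. Single clusters held 5 to 27 tags, and 17 reached 10. For the other 6 members with a row no cluster on the same strand lay in such a window. When the 17 clusters were added to the ITGB1 clusters of at least 10 tags, its CDS share was 61.5% ± 3.92 (SD, n = 2).

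In ITGA6, 6 of the 11 intron clusters formed a run with gaps of up to 100 nt at 173063011 to 173063985 on chromosome 2, with 25 tags of replicate 1 and 59 of replicate 2. On the opposite strand within the span of the members, 1 cluster lay in ITGA2 and 1 in ITGA6, each with 6 tags.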
